A study of Mus musculus with 16 samples.

Results

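The Notch pathway genes described here are 10 genes found by symbol among the 23284 genes of the expression table: the ligands Dll1, Jag1 and Jag2, the receptors Notch1, Notch2, Notch3 and Notch4, and the effector genes Hes1, Hes5 and Hey1. All 10 were detected in every library. They were measured in prefrontal cortex of mice of 4 genotypes, with 4 libraries per genotype and 16 in all. In Controls, which were littermates without Cre drawn from all of the lines, the floxed alleles were not recombined. In APC cKO mice (APC fl/fl with Cre), adenomatous polyposis coli, a scaffold of the complex that marks β-catenin for destruction, was deleted. In β-cat cOE mice (labelled Bcat cOE, ctnnb1 with 1 allele whose exon 3 is floxed), Cre removed the exon that holds the destruction signals of β-catenin, so that a stabilized protein was made. In APC/β-cat cKO mice (labelled APC/Bcat cKO, both genes floxed on both alleles), Apc and ctnnb1 were deleted together. Cre was driven by the CamKIIα promoter, so recombination was aimed at forebrain excitatory neurons, while the RNA came from whole tissue, in which the other cell types kept intact alleles. The study asked how excess and reduced β-catenin change gene expression in this tissue.

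Notch signaling passes between touching cells. A ligand of the Delta or Jagged family on one cell binds a Notch receptor on its neighbour, the receptor is cut by an ADAM protease and then by γ-secretase, and its freed intracellular domain enters the nucleus, joins the DNA-binding protein RBPJ and the coactivator Mastermind, and turns on Hes and Hey genes, which encode transcriptional repressors. In the developing cortex the pathway keeps neural stem cells undifferentiated, and in the adult brain it acts in astrocytes, vessels, remaining stem cells and some neurons. β-Catenin acts on transcription through TCF/LEF factors, and Wnt and Notch signaling are known to meet at some genes.

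The genes lie on 6 autosomes in the mm10 annotation of GENCODE and all are protein coding. Dll1 is on chromosome 17 from 15367354 to 15376872, Notch3 on the same chromosome from 32120820 to 32166852 and Notch4 from 34564268 to 34588503. Jag1 is on chromosome 2 from 137081456 to 137116644 and Notch1 from 26457903 to 26516663. Notch2 is on chromosome 3 from 98013527 to 98150361 and Hey1 from 8663359 to 8667256. Jag2 is on chromosome 12 from 112907819 to 112929776, Hes1 on chromosome 16 from 30064384 to 30067796, and Hes5 on chromosome 4 from 154960923 to 154962371.

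The promoters of Hes5 and Dll1 are shown because Hes5 is a classical target of RBPJ and Dll1 is the ligand with the largest differences between genotypes. Sequences are those of RefSeq on GRCm38.p6, the mm10 build, as the 250 bases before the start of the gene, 5′ to 3′ on the strand of the gene. Capitals in the Hes5 sequence (chr4:154960673-154960922, plus strand) mark TGGGAA, the core of the RBPJ site, on either strand. Capitals in the Dll1 sequence (chr17:15376933-15377182, minus strand) mark CTTTGT, a core of the TCF/LEF site, which is there on the opposite strand. Of the 2 starts that RefSeq gives Dll1, this is the upstream one, picked because its window holds a TCF/LEF core. The gene model of the expression table begins near the other start.
Hes5: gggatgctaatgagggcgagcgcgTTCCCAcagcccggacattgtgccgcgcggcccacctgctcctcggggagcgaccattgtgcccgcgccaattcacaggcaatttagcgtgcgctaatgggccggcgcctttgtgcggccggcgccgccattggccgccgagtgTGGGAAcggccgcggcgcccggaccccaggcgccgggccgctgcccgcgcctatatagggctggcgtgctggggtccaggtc
Dll1: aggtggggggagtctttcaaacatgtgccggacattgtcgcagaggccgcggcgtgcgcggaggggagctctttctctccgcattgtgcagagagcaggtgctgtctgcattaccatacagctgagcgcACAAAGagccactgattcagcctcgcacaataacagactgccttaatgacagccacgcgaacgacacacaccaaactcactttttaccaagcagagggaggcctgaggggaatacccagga

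The RBPJ core matched the Hes5 window at 226 bases before the start, on the opposite strand, and at 82 bases before it. Both strands were searched. Windows of 300 bases, with 50 after the start, were at hand for 8 of the 10 genes, 9 windows in all because Dll1 has 2 starts, and among these only the window of Hes5 held TGGGAA. Of 32851 mouse promoter windows of the same length, 25.6% held it. CTTTGT was found in the Hes5 window at 118 bases before the start and in the window of the upstream Dll1 start at 121 bases before it, and in 18.7% of all windows. The window of the other Dll1 start, from 15375774 to 15376073, did not hold it. CTTTGA, the other TCF/LEF core searched, was found only in the Jag1 window, 25 bases after the start, and in 16% of all windows. These matches describe the letters of the windows and not the binding of a factor.

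The levels of the 10 genes spanned a wide range. They are given in FPKM, a measure scaled by transcript length and library size, so levels can be compared between genes. Over all 16 libraries the mean was 32.8 FPKM for Hey1, 12.02 for Hes5, 6.75 for Jag2, 5.66 for Hes1, 2.19 for Notch1, 1.79 for both Notch2 and Dll1, 1.21 for Notch3, 1.02 for Jag1 and 0.699 for Notch4. The median gene tested was at 10.01 FPKM, so only the effector genes Hey1 and Hes5 stood above it. The 3 effectors summed to 50.6 ± 3.91 FPKM (SD, n = 4) in Controls, the 3 ligands to 9.33 ± 0.773 FPKM and the 4 receptors to 5.999 ± 0.393 FPKM.

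In Controls, Hey1, Hes5, Jag2, Hes1 and Notch1 stood in this order with no overlap between neighbours. Below Notch1, each neighbouring pair in the order Notch1, Notch2, Dll1, Notch3, Jag1 and Notch4 overlapped. The top of the order was the same in every genotype, but Jag2 and Hes1 overlapped in β-cat cOE mice and in APC/β-cat cKO mice, and Hes5 overlapped Jag2 in APC/β-cat cKO mice. Notch4 was the lowest gene in all 4 genotypes, and it lay below Jag1 without overlap in APC cKO mice and β-cat cOE mice.

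**Figure D1:**
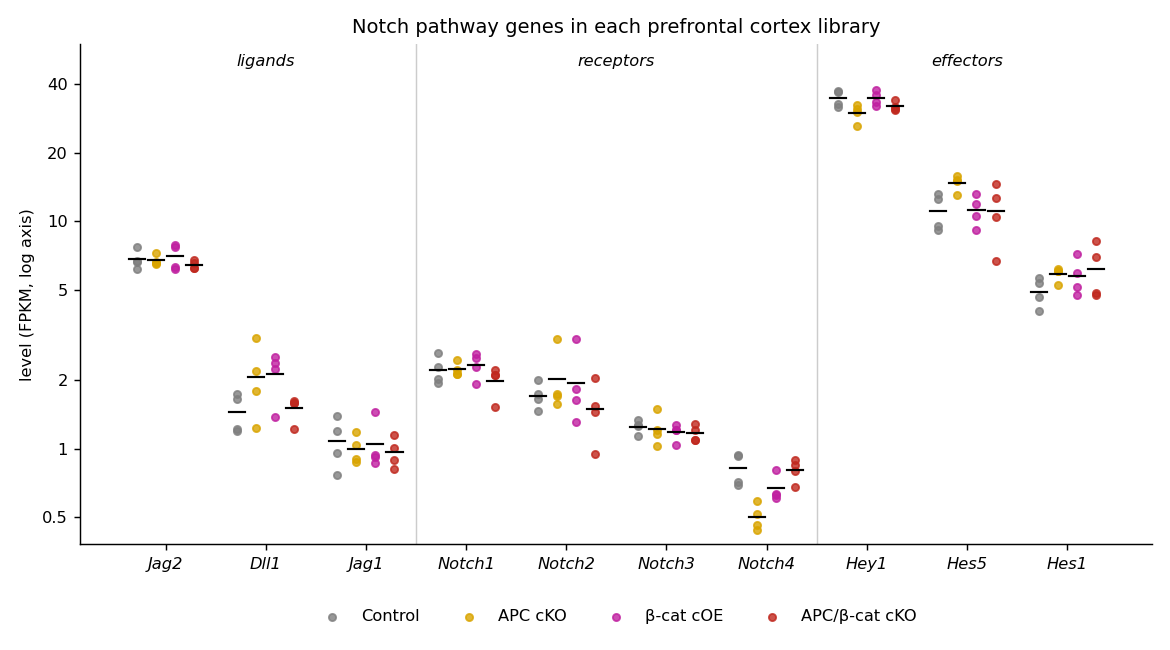
Level of each Notch pathway gene in each library, in FPKM on a log axis; points are single libraries, colored by genotype, bars are genotype means, and genes are grouped by role and ordered by their mean within it. The genes run from Hey1, with a mean of 32.8 FPKM, to Notch4, with a mean of 0.699 FPKM, and the genotypes overlap for nearly every gene.

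The scatter among libraries of one genotype also differed between the genes. The within-genotype SD on the log2 scale was 0.11 for Hey1 and 0.12 for Jag2, near the 0.15 of the median gene tested. It was 0.36 for Dll1 and 0.40 for Notch2, the most variable of the 10. Across all libraries the highest value was 3.21 times the lowest for Notch2 and 1.28 times for Jag2.

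Libraries were compared with limma on log2(FPKM + 0.1), a scale on which the change of genes with low values is understated, and p-values were adjusted by the Benjamini-Hochberg method over the 13978 genes whose mean reached 0.5 FPKM. A gene is called where its adjusted p is under 0.05. The labels do not say that the libraries of a genotype came from separate animals, so the p-values measure the spread between these libraries. The targeted gene Apc was at 40.8 to 50.1 FPKM in Controls and 38.8 to 49.5 FPKM in β-cat cOE mice, against 7.85 to 17.1 FPKM in APC cKO mice and 6.80 to 12.2 FPKM in APC/β-cat cKO mice. The number of fragments behind each value is unknown, and 5726 to 6649 genes were at 0 per library. By Xist and Y-linked genes, Control replicate 1 and APC cKO replicate 1 were female and the other 14 libraries male. Of markers that check the tissue, 6 genes of excitatory neurons summed to 1088 to 1401 FPKM in every library, and 6 genes of striatum to between 58.5 and 375 FPKM.

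None of the 10 Notch pathway genes was called in any genotype. The numbers of all genes called were 6 in APC cKO mice against Controls (0.0429%), 2 in β-cat cOE mice (0.0143%) and 29 in APC/β-cat cKO mice (0.207%). At an unadjusted p under 0.05, limma gave 3 of the 10 genes in APC cKO mice (Notch4, Hes5 and Hey1), against 10% of all genes tested. It gave 1 in β-cat cOE mice (Dll1), against 5.07%, and 0 in APC/β-cat cKO mice, against 14.2%. Between lines 0 of the 10 were called as well. APC cKO mice differed from APC/β-cat cKO mice in 30 genes (0.215%), β-cat cOE mice from APC/β-cat cKO mice in 32 (0.229%) and APC cKO mice from β-cat cOE mice in 6 (0.0429%). The unadjusted counts there were 2, 0 and 1 of the 10, against 10.3%, 11.9% and 7.57% of all genes. With the lines of elevated β-catenin, APC cKO and β-cat cOE, set together against the other 8 libraries, 8 genes were called (0.0572%), of which 0 were among the 10, and 2 of the 10 (Dll1 and Notch4) had an unadjusted p under 0.05, against 8.84%. The comparisons with Controls share the same 4 Control libraries.

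The median log2 change of the 10 genes was 0.0022 in APC cKO mice, 0.031 in β-cat cOE mice and -0.079 in APC/β-cat cKO mice, where the medians of all genes tested were -0.0042, -0.0036 and 0.0031. The median size of change without its sign was 0.20 in APC cKO mice, against 0.090 over all genes. It was 0.071 against 0.075 in β-cat cOE mice, and 0.10 against 0.11 in APC/β-cat cKO mice.

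**Figure D2:**
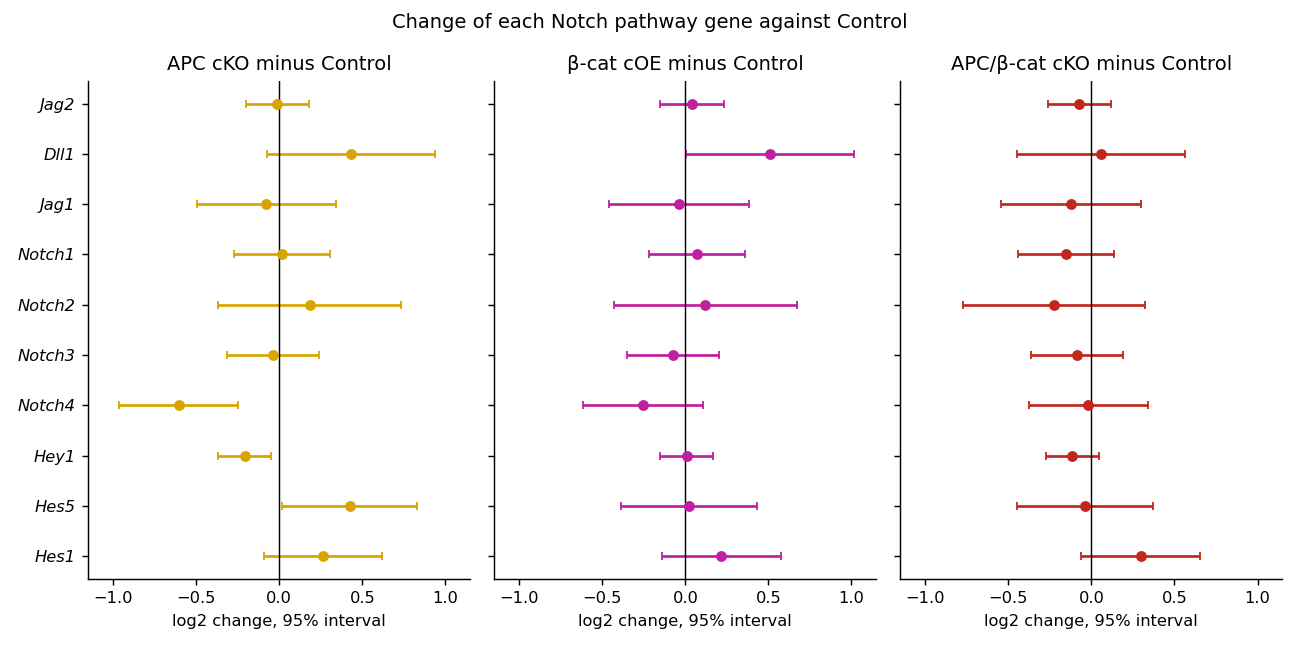
Log2 change of each Notch pathway gene against Controls with its 95% interval, from limma, for APC cKO mice, β-cat cOE mice and APC/β-cat cKO mice (n = 4 libraries each). The largest change is that of Notch4 in APC cKO mice, -0.61, and in APC/β-cat cKO mice all 10 intervals include 0.

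Among the ligands, Dll1, a Delta-type ligand carried by neural progenitors and newborn neurons, had the highest means in the lines with excess β-catenin. It was at 1.22, 1.74, 1.66 and 1.19 FPKM in Controls and at 3.06, 1.23, 1.80 and 2.19 FPKM in APC cKO mice. It was at 2.53, 2.23, 1.38 and 2.39 FPKM in β-cat cOE mice and at 1.23, 1.63, 1.59 and 1.58 FPKM in APC/β-cat cKO mice. In each of the lines with excess β-catenin 3 libraries lay above every Control and 1 lay within the Control range, while APC/β-cat cKO mice lay within it throughout.

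The log2 change of Dll1 against Controls was 0.51 in β-cat cOE mice (standard error 0.24, 95% interval 0.0016 to 1.01, limma p = 0.0494, adjusted p = 0.946, exact permutation p = 0.0857). In APC cKO mice it was 0.43 (interval -0.075 to 0.94, limma adjusted p = 0.562), while APC/β-cat cKO mice were at 0.060 (interval -0.45 to 0.57, limma adjusted p = 0.936). Set together, APC cKO mice and β-cat cOE mice were 0.44 above the other 8 libraries (standard error 0.17, limma adjusted p = 0.464). APC cKO mice and β-cat cOE mice differed from each other by -0.077 (interval -0.58 to 0.43). Dll1 was on the list of genes that the study selected on these same libraries, so its direction here is not independent evidence. Exact permutation tests of 4 against 4 libraries are two-sided here and cannot give a p below 0.0286.

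The Jagged ligands overlapped between genotypes. Jag2 was at 6.16 to 7.87 FPKM over all libraries, with a mean of 6.80 ± 0.644 FPKM (SD, n = 4) in Controls, 6.73 ± 0.346 in APC cKO mice, 7.01 ± 0.909 in β-cat cOE mice and 6.45 ± 0.262 in APC/β-cat cKO mice. Its log2 change against Controls lay between -0.072 and 0.040, and the 95% intervals of all 3 lines lay within -0.26 and 0.23. Jag1 was at 0.764 to 1.44 FPKM, with a Control mean of 1.08 ± 0.276 FPKM and means of 0.999 ± 0.141 in APC cKO mice, 1.04 ± 0.268 in β-cat cOE mice and 0.967 ± 0.143 in APC/β-cat cKO mice. The changes of Jag1 were -0.078, -0.038 and -0.12 (limma adjusted p = 0.921, 0.988 and 0.808), with intervals reaching from -0.54 to 0.38.

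Among the receptors, Notch4, which is known mainly from endothelial cells, was the gene with the clearest separation. It was at 0.939, 0.692, 0.717 and 0.931 FPKM in Controls and at 0.440, 0.462, 0.589 and 0.519 FPKM in APC cKO mice. It was at 0.809, 0.633, 0.606 and 0.627 FPKM in β-cat cOE mice and at 0.676, 0.801, 0.892 and 0.851 FPKM in APC/β-cat cKO mice. All 4 APC cKO libraries lay below all 12 others, and β-cat cOE mice overlapped both Controls and APC/β-cat cKO mice.

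Notch4 was -0.61 on the log2 scale in APC cKO mice against Controls (standard error 0.17, 95% interval -0.97 to -0.25, limma p = 0.00257, exact permutation p = 0.0286), and the adjusted limma p was 0.31. The groups did not overlap, which held for 5.47% of all genes tested in this comparison. Against APC/β-cat cKO mice the difference was -0.59 (limma adjusted p = 0.22, exact permutation p = 0.0286), also without overlap, as for 5.49% of genes. Against β-cat cOE mice it was -0.35 (interval -0.71 to 0.0082, limma adjusted p = 0.674), again without overlap, as for 5.2% of genes. β-Cat cOE mice were at -0.26 against Controls (limma adjusted p = 0.95) and APC/β-cat cKO mice at -0.018 (interval -0.38 to 0.34, limma adjusted p = 0.977). The elevated lines together were at -0.42 against the other 8 libraries (limma adjusted p = 0.341).

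Values of other vessel genes stand beside that of Notch4. The summed level of 8 endothelial markers was 40.2 to 50.1 FPKM in Controls and 35.1 to 49.6 FPKM in APC cKO mice, so the groups overlapped, and none of the 8 was at 0. Of the 8, 7 had a negative log2 change in APC cKO mice, with a median of -0.096 against -0.0042 for all genes, 1 had an unadjusted limma p under 0.05 (Flt1, a VEGF receptor, -0.42, adjusted p = 0.435) and 0 were called. The largest of the 8 changes was that of Flt1, and those nearest 0 were Cldn5, a tight junction gene of endothelium, at 0.037 and Cdh5, its cadherin, at -0.012. In APC/β-cat cKO mice, where Notch4 was at -0.018, 5 of the 8 were negative and 3 positive, with a median of -0.060. Flt1 was there at -0.32 and Kdr at -0.35. In β-cat cOE mice 5 were negative, with a median of -0.023. Replicate 2 of APC cKO had the highest endothelial sum of its group, 49.6 FPKM, with Notch4 at 0.462 FPKM. The summed level of 8 mural markers, of pericytes and smooth muscle, was 50.1 to 56.3 FPKM in Controls and 40.4 to 56.8 FPKM in APC cKO mice. Of these 8, 6 had a negative change, with a median of -0.12, and 1 had an unadjusted limma p under 0.05. It was Rgs5, a pericyte gene, at -0.43 against Controls (limma adjusted p = 0.31) and -0.50 against β-cat cOE mice (limma adjusted p = 0.23). In both the groups did not overlap, as for 5.47% and 5.2% of all genes tested. In β-cat cOE mice, where Notch4 was at -0.26, 7 of the 8 mural markers were positive and 1 negative, with a median of 0.072. In APC/β-cat cKO mice 5 mural markers were negative and 3 positive, with a median of -0.008. In whole tissue, fewer cells of a type and less RNA per cell cannot be told apart, and the part of endothelial and mural cells in the Notch4 values was not tested.

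Notch2, a receptor with a broad expression in glia and progenitors, was the most uneven gene among replicates. It was at 1.47, 1.65, 2.003 and 1.74 FPKM in Controls and at 3.04, 1.58, 1.70 and 1.75 FPKM in APC cKO mice. It was at 3.04, 1.83, 1.31 and 1.63 FPKM in β-cat cOE mice and at 1.45, 2.04, 1.54 and 0.948 FPKM in APC/β-cat cKO mice. Replicate 1 of APC cKO and replicate 1 of β-cat cOE stood above all other libraries, and the other 6 libraries of these lines ran from 1.31 to 1.83 FPKM.

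The log2 change of Notch2 against Controls was 0.18 in APC cKO mice (interval -0.37 to 0.73, limma adjusted p = 0.841), 0.12 in β-cat cOE mice (interval -0.43 to 0.67, limma adjusted p = 0.974), while APC/β-cat cKO mice were at -0.22 (interval -0.77 to 0.32, limma adjusted p = 0.713). Without those 2 libraries it was -0.023 in APC cKO mice and -0.11 in β-cat cOE mice.

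**Figure D3:**
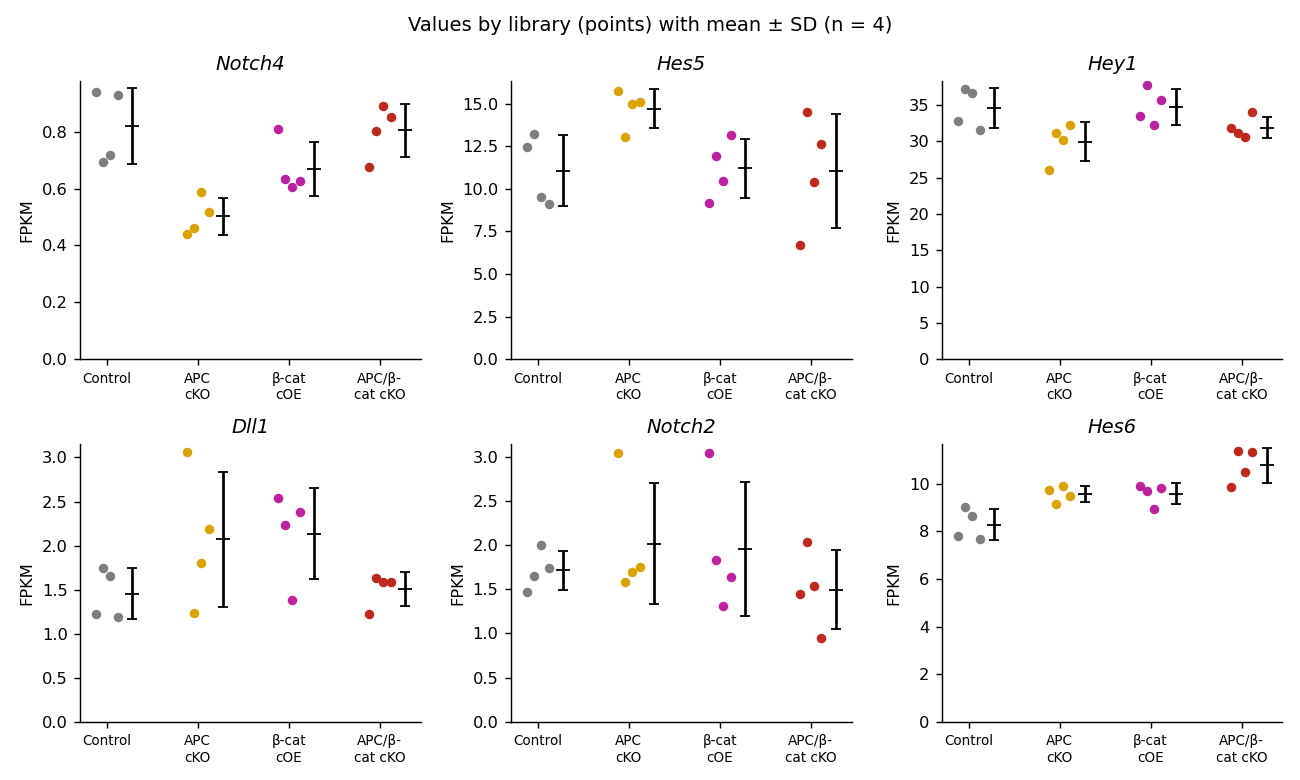
Levels in FPKM of selected genes of the pathway by genotype; points are single libraries and bars give the mean ± SD (n = 4). Notch4 is lower in all 4 APC cKO libraries than in any other library, and Notch2 is above 3 FPKM in 1 APC cKO and 1 β-cat cOE library only.

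Notch1, the main receptor of neural stem cells and also present in neurons, was at 1.52 to 2.63 FPKM over all libraries. Its means were 2.22 ± 0.309 FPKM (SD, n = 4) in Controls, 2.23 ± 0.152 in APC cKO mice, 2.33 ± 0.296 in β-cat cOE mice and 1.99 ± 0.317 in APC/β-cat cKO mice, and all groups overlapped. The log2 changes were 0.016, 0.070 and -0.15, with intervals from -0.44 to 0.36. Notch3, the receptor of pericytes and smooth muscle of vessels, was at 1.03 to 1.49 FPKM. Its log2 changes were -0.037, -0.073 and -0.087 in APC cKO mice, β-cat cOE mice and APC/β-cat cKO mice (limma adjusted p = 0.948, 0.974 and 0.791).

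Among the effectors, Hes5, a repressor that depends closely on Notch in neural stem cells and is also present in astrocytes, was highest in APC cKO mice. It was at 12.5, 13.2, 9.50 and 9.12 FPKM in Controls and at 15.8, 13.1, 15.0 and 15.1 FPKM in APC cKO mice. It was at 9.17, 11.9, 10.5 and 13.2 FPKM in β-cat cOE mice and at 6.68, 14.5, 10.4 and 12.6 FPKM in APC/β-cat cKO mice. Of the APC cKO libraries 3 lay above all 12 other libraries, and replicate 2 lay just under the highest Control.

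The log2 change of Hes5 in APC cKO mice was 0.42 against Controls (standard error 0.19, 95% interval 0.014 to 0.83, limma p = 0.0436, adjusted p = 0.481, exact permutation p = 0.0571). Against APC/β-cat cKO mice it was 0.46 (limma adjusted p = 0.44, exact permutation p = 0.0571) and against β-cat cOE mice 0.40 (interval -0.008 to 0.81, limma adjusted p = 0.672). β-Cat cOE mice were at 0.022 against Controls (interval -0.39 to 0.43) and APC/β-cat cKO mice at -0.041 (interval -0.45 to 0.37).

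Markers of cells that are known to express Hes5 stand beside these values. The summed level of 8 astrocyte markers was 1040 to 1126 FPKM in Controls and 1026 to 1161 FPKM in APC cKO mice. Of the 8, 5 had a positive change in APC cKO mice and 2 an unadjusted limma p under 0.05, Gfap, the filament protein of reactive astrocytes (log2 change 0.73, adjusted p = 0.328), and Gja1, an astrocyte gap junction gene (0.23, adjusted p = 0.419). The 3 with a negative change were Slc1a2 (-0.27), Aldoc (-0.10) and Fgfr3 (-0.076), and Aldh1l1 was at 0.0007. The summed level of 5 ependymal markers was 4.07 to 6.78 FPKM in Controls and 4.36 to 35.4 FPKM in APC cKO mice, where 3 of 4 libraries lay above all Controls and replicate 2 within their range. All 5 had a positive change, with a median of 1.46 on the log2 scale, and 0 were called. All 5 were also positive in β-cat cOE mice (median 0.55) and in APC/β-cat cKO mice (median 0.65), where Hes5 was at 0.022 and -0.041. The part of these cells in the Hes5 values was not tested.

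Hes1, a repressor that Notch and other signals turn on, was higher in the mean of all 3 lines than in Controls. It was at 4.01, 5.34, 4.64 and 5.60 FPKM in Controls and at 6.03, 6.03, 6.13 and 5.24 FPKM in APC cKO mice. It was at 5.11, 4.74, 5.90 and 7.14 FPKM in β-cat cOE mice and at 4.81, 8.14, 4.73 and 6.93 FPKM in APC/β-cat cKO mice. All groups overlapped the Controls. The log2 changes were 0.26, 0.22 and 0.30 (limma adjusted p = 0.62, 0.95 and 0.432), each with an interval that includes 0. In each of the 3 lines the library with the highest Hes1 also had the highest ependymal marker sum of its group, 35.4 FPKM in APC cKO replicate 3, 23.5 FPKM in β-cat cOE replicate 4 and 21.04 FPKM in APC/β-cat cKO replicate 2. In Controls the sums ranged from 4.07 to 6.78 FPKM, and replicate 4, with the highest Hes1 of the Controls, had the lowest sum. In APC cKO mice, replicates 1 and 2 were both at 6.03 FPKM of Hes1, beside sums of 20.1 and 4.36 FPKM. The part of these cells in the Hes1 values was not tested.

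Hey1, the most abundant of the 10 and a repressor expressed in vessels and in neurons, was lowest in APC cKO mice. It was at 32.9, 37.2, 36.7 and 31.6 FPKM in Controls and at 26.1, 31.2, 30.2 and 32.3 FPKM in APC cKO mice. It was at 33.4, 37.7, 32.2 and 35.7 FPKM in β-cat cOE mice and at 31.8, 31.1, 30.7 and 34.04 FPKM in APC/β-cat cKO mice. In APC cKO mice 3 libraries lay below every Control and 1 within the Control range.

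The log2 change of Hey1 in APC cKO mice was -0.21 (standard error 0.074, 95% interval -0.37 to -0.051, limma p = 0.0129, adjusted p = 0.371, exact permutation p = 0.0571). The difference from β-cat cOE mice was -0.22 (limma adjusted p = 0.469, exact permutation p = 0.0571). In β-cat cOE mice the change against Controls was 0.0079 (interval -0.15 to 0.17) and in APC/β-cat cKO mice -0.11 (interval -0.27 to 0.044). The means of Hes5 and Hes1 in APC cKO mice lay above those of Controls and that of Hey1 below, and the sum of the 3 effectors was 50.5 ± 2.01 FPKM (SD, n = 4) against 50.6 ± 3.91 FPKM in Controls.

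Dll1 and Notch2 shared their highest libraries with markers of progenitors and neuroblasts. The summed level of 8 such markers (Dcx, Sox11, Dlx1, Dlx2, Mki67, Top2a, Nes and Igfbpl1) was 66.4 FPKM in replicate 1 of APC cKO and 47.2 FPKM in replicate 1 of β-cat cOE. In the other 14 libraries it ran from 16.9 to 42.9 FPKM, with the highest of these in replicate 2 of APC/β-cat cKO. Dll1 was there at 1.63 FPKM, within the Control range, and Notch2 at 2.04 FPKM. Control replicate 4, with the lowest Dll1 of all libraries, 1.19 FPKM, had a sum of 31.3 FPKM. Replicates 2 and 4 of β-cat cOE had Dll1 at 2.23 and 2.39 FPKM, above every Control. Their sums lay below the 34.8 FPKM of Control replicate 3. None of the 8 was at 0 throughout, and 7 passed the filter on low levels. All 7 had a positive change in APC cKO mice and in β-cat cOE mice, with medians of 0.53 and 0.33 on the log2 scale. Of the 7, 0 were called. Dcx is on the list of genes that the study selected on these same libraries, so its direction is not independent evidence.

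Without replicate 1 of APC cKO and replicate 1 of β-cat cOE, the log2 change of Dll1 was 0.23 in APC cKO mice and 0.42 in β-cat cOE mice, against 0.43 and 0.51 with them. That of Hes5 in APC cKO mice was 0.39, that of Hey1 -0.14 and that of Notch4 -0.56. The part of progenitors in the Dll1 and Notch2 values was not tested.

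**Figure D4:**
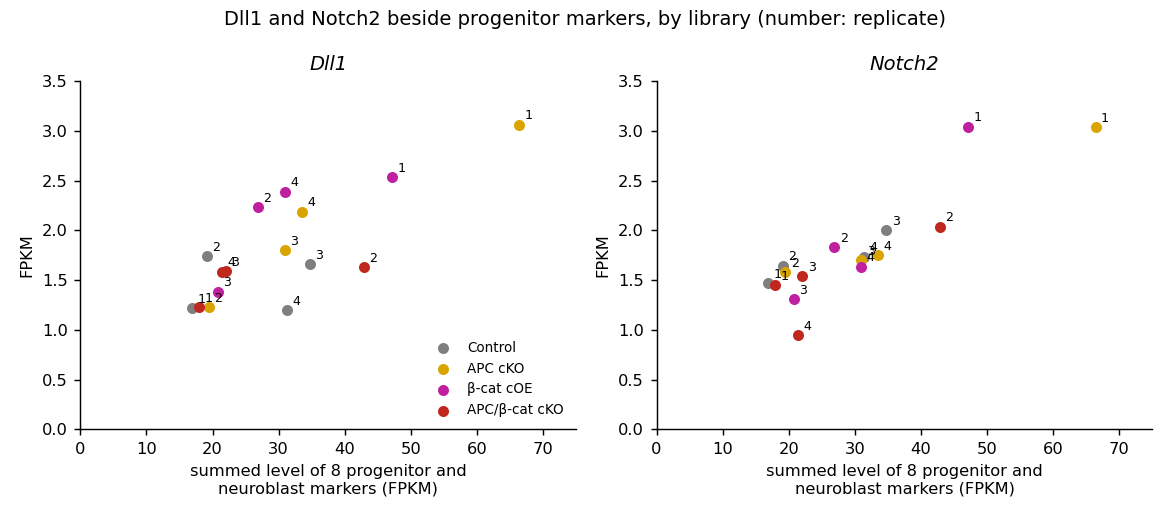
Dll1 and Notch2 in FPKM against the summed level of 8 progenitor and neuroblast markers in FPKM; each point is a library, colored by genotype and numbered by replicate. The libraries with the highest marker sums, at 66.4 and 47.2 FPKM, are also those with the highest Notch2, at 3.04 FPKM each.

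The genes whose values over the 16 libraries were most like those of each member are given as a description, by Pearson's r of log2(FPKM + 0.1) among 12891 genes whose mean reached 1 FPKM. Genes in 1 set of libraries share depth and tissue makeup, so r is not a measure of shared control. For Dll1 they were Rgs3 (r = 0.90), Pax6 (0.87) and Slc27a1 (0.86). For Notch2 they were Syt10 (0.95) and Igsf3 (0.94), and for Notch1 Sbf2 (0.92), Rev3l (0.88) and Anapc1 (0.88). Pax6 encodes a homeodomain transcription factor and, like Dll1, is on the list that the study selected on these same libraries. For Notch4 they were Slfn2 (0.83), Zbtb7c (0.81) and Eltd1 (0.79). For Hes5 they were Ston1 (0.85), Blcap (0.83) and Zfp36l2 (0.81), for Hes1 Afmid (0.81), Polr1c (0.79) and Erf (0.78), and for Hey1 Hps6 (0.82), Gm6277 (0.81) and F11r (0.80). For Jag1 they were Kctd12 (0.82), Pcolce (0.78) and 1600012H06Rik (0.77), for Jag2 Klhl36 (0.84), Srsf5 (0.83) and Zfp687 (0.81), and for Notch3 Cntn5 (0.70), Cyp2u1 (0.70) and Sgcd (0.69). Among the 10 genes themselves the highest values were those of Notch1 with Notch2 (0.75) and Dll1 with Notch2 (0.65), and Hes1 with Hes5 stood at 0.45.

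The rest of the pathway was followed with 64 further genes grouped by role, of which 59 passed the filter. Left out by it were Dll3 (mean 0.441 FPKM), Hes7 (0.288), Rbpjl (0.113), Hes3 (0.074) and Hes2, which was listed at 0. Of the 59, 1 was called in any comparison with Controls, Hes6 in APC/β-cat cKO mice. In APC cKO mice 6 were higher and 3 lower at an unadjusted limma p under 0.05, in β-cat cOE mice 4 and 3, and in APC/β-cat cKO mice 2 and 3. Of all genes tested, 10%, 5.07% and 14.2% had such a p in these comparisons. The median log2 changes of the 59 were 0.013, 0.0015 and 0.019, near those of all genes.

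Hes6, which encodes a member of the Hes family that favors neuronal differentiation and counters Hes1, rose in APC/β-cat cKO mice. It was at 7.82, 9.03, 8.63 and 7.67 FPKM in Controls and at 9.89, 11.4, 10.5 and 11.3 FPKM in APC/β-cat cKO mice, and these groups did not overlap, as for 5.21% of all genes tested. The log2 change was 0.38 (standard error 0.068, limma adjusted p = 0.0322). In APC cKO mice it was at 9.73, 9.16, 9.90 and 9.49 FPKM, all above the Controls, where 5.47% of all genes did not overlap, with a log2 change of 0.21 (limma adjusted p = 0.332). In β-cat cOE mice it was at 9.93, 9.69, 8.93 and 9.82 FPKM, with a log2 change of 0.21 (limma adjusted p = 0.946). The call of Hes6 held under 15 of 28 other settings, with adjusted limma p from 0.0257 to 0.233. It was lost without Control replicate 1, 3 or 4, APC cKO replicate 4, β-cat cOE replicate 2 or APC/β-cat cKO replicate 2, 3 or 4, and in the 5 other settings given with the processing, and the log2 change stayed between 0.34 and 0.42 throughout. The summed level of 8 oligodendrocyte lineage markers was 852 to 956 FPKM in APC/β-cat cKO mice and 672 to 1029 FPKM in Controls. Of these 8, 7 had a positive change, with a median of 0.11, and 2 had an unadjusted limma p under 0.05, the myelin genes Mog (0.40, adjusted p = 0.289) and Mag (0.29, adjusted p = 0.281). In APC cKO mice 7 of the 8 had a negative change, with a median of -0.21, and 3 were lower at such a p. In β-cat cOE mice 5 were positive, with a median of 0.0059. The highest sum, 1029 FPKM, was in Control replicate 4, where Hes6 was lowest, at 7.67 FPKM. In APC/β-cat cKO mice all 6 microglia markers had a positive change, with a median of 0.12, and 2 had an unadjusted limma p under 0.05, Cx3cr1 (0.18, adjusted p = 0.29) and Csf1r (0.21, adjusted p = 0.283). The part of these cells in the Hes6 values was not tested.

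The other genes with the smallest p-values were not called. Id4, a dominant negative helix-loop-helix factor of progenitors and astrocytes, was in APC cKO mice at 38.03, 24.6, 44.9 and 31.9 FPKM against 19.2 to 24.9 FPKM in Controls (log2 change 0.59, limma adjusted p = 0.31). These groups overlapped, while in the other lines every library lay above all Controls. Id4 ran from 26.3 to 40.7 FPKM in β-cat cOE mice and from 25.6 to 32.1 FPKM in APC/β-cat cKO mice. Its changes there were 0.40 and 0.35, where limma gave adjusted p-values of 0.946 and 0.354. Such a separation held for 3.08% and 5.21% of all genes tested. Replicate 2 of APC cKO, the lowest of its group, also had the lowest ependymal and progenitor marker sums of the group. Replicate 3, with the highest Id4 of the group, had a lower progenitor sum than replicates 1 and 4. In β-cat cOE mice, replicate 1 had the lowest Id4, 26.3 FPKM, beside the highest progenitor sum, 47.2 FPKM. In APC/β-cat cKO mice, replicate 2 had the highest Id4 and the highest progenitor sum. In each line the library with the highest Id4 had the highest ependymal sum, but in Controls it had the lowest. The part of these cells in the Id4 values was not tested. Dner, a ligand-like protein of neurons, was at 53.3 to 60.4 FPKM in Controls, 54.9 to 73.1 FPKM in APC cKO mice and 58.8 to 65.6 FPKM in β-cat cOE mice, with a difference of 0.17 between the elevated lines and the other 8 libraries (limma adjusted p = 0.341).

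In the same comparison Numbl, a relative of the Notch inhibitor Numb, was at -0.13 (limma adjusted p = 0.401) and Aph1b, a subunit of γ-secretase, at -0.32 (limma adjusted p = 0.415). Hdac1, a corepressor subunit, was at 0.35 in β-cat cOE mice (limma adjusted p = 0.946). In APC/β-cat cKO mice, Itch, a ubiquitin ligase that acts on Notch, was at -0.20 (limma adjusted p = 0.319) and Ep300, a coactivator, at -0.30 (limma adjusted p = 0.333). Dlk1, a ligand-like gene that is also on the list the study selected, was at 0.677, 0.673, 4.40 and 1.07 FPKM in APC cKO mice and at 1.43, 0.488, 0.109 and 0.0328 FPKM in Controls (log2 change 1.75, limma adjusted p = 0.452), and the groups overlapped. In each genotype the library with the highest Dlk1 was the one with the highest sum of 6 striatal markers. Dlk1 was at 1.43 FPKM beside a sum of 281.5 FPKM in Control replicate 1, at 4.40 beside 375 in APC cKO replicate 3, at 2.60 beside 197 in β-cat cOE replicate 4 and at 1.05 beside 266 in APC/β-cat cKO replicate 4. All 6 striatal markers had a positive change in APC cKO mice, with a median of 0.70, and 0 had an unadjusted limma p under 0.05. The part of striatal tissue in the Dlk1 values was not tested.

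By role, 0 of the 6 tested ligand-like genes, 4 ligand ubiquitin ligases, 5 glycosylation enzymes, 10 cleavage genes, 9 inhibitors, 9 nuclear complex genes and 10 corepressors were called in any line against Controls. Rbpj, which binds the DNA for the pathway, was at 8.58 ± 0.548 FPKM (SD, n = 4) in Controls, 7.99 ± 0.188 in APC cKO mice, 8.06 ± 0.324 in β-cat cOE mice and 7.93 ± 1.18 in APC/β-cat cKO mice. Rbpj was chosen for display after its values were seen.

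**Figure D5:**
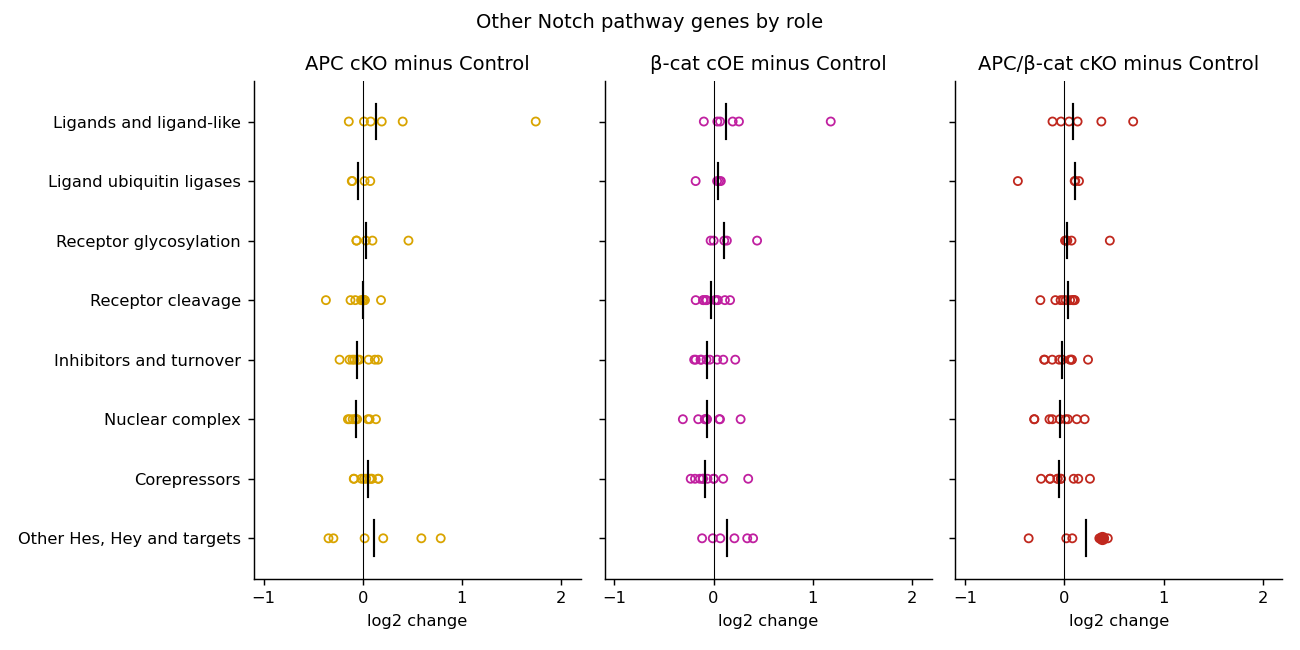
Log2 change against Controls of 59 further Notch pathway genes, grouped by role, in APC cKO mice, β-cat cOE mice and APC/β-cat cKO mice; each point is a gene, vertical bars are the medians of a role, and a filled point is a called gene. The filled point is Hes6 in APC/β-cat cKO mice, at 0.38, and the point farthest from 0 is Dlk1 in APC cKO mice, at 1.75, which was not called.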

How the data were processed

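RNA from dissected mouse prefrontal cortex was prepared by the authors with the Illumina TruSeq stranded mRNA kit and sequenced in paired ends. Reads were mapped to mm10 with TopHat2 2.0.10, and expression values came from Cufflinks2 and Cuffdiff 2.1.1, per the labels and the study's methods. The deposited values were read as log2(FPKM + 1), since no source states the base. FPKM times gene length in kilobases sums to 592239 to 627186 per library if it is 2, and to 5279898 to 5871089 if natural logs are assumed, too much for FPKM. FPKM had been assumed in the design, so the deposited values were turned back into FPKM. All 16 value columns were used and each was matched to its genotype by its label.

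limma 3.58.1 in R 4.3.3 (lmFit, contrasts.fit, eBayes with a trend) was run on log2(FPKM + 0.1) for genes whose mean reached 0.5 FPKM, 13978 of 23284, with the 4 genotypes in 1 fit and 12 residual degrees of freedom. Single genes were also compared with exact two-sided permutation tests. The test was tried on simulated data. Intervals are at 95%. Depth is unknown, so no counting error could be given.

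The members and the gene lists were chosen with earlier results of these data known. The named genes are the 10 members, called genes of the pathway list, otherwise its 3 smallest p-values per comparison with Controls and for both elevated lines against the rest, and for likeness the 3 genes with the highest r. Some genes that this rule names are left out of the text. Marker lists of astrocytes, endothelium, mural cells, oligodendrocytes, microglia, excitatory and inhibitory neurons, progenitors, striatum, ependyma and meninges held 73 tested genes, 0 of them called in any comparison, and 15, 4 and 7 had an unadjusted limma p under 0.05 in APC cKO mice, β-cat cOE mice and APC/β-cat cKO mice. Alternatives were another pseudocount, other filters, sex as a covariate, no trend, scaling by quantiles or by the median of ratios, a block, fits of the compared groups alone and leaving out libraries. Python 3.11.15 with pandas 2.3.3, scipy 1.17.1, numpy 2.4.6 and matplotlib 3.10.9 served for the rest.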

Additional observations from a re-analysis of the deposited data

Results flagged for a closer look

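In groups of 4 libraries, a value was picked out where the gap between it and its nearest neighbour, divided by the range of the group, exceeded the 95% critical value of Dixon's test for 4 samples. This held for 7 of 44 groups (the 10 members and Hes6, in 4 genotypes), where chance gives about 1 in 20, or 2.2. Dll1 in APC/β-cat cKO mice had its lowest library at 1.23 FPKM and the next at 1.58 FPKM (ratio 0.8846). Jag1 in β-cat cOE mice had its highest library at 1.44 FPKM and the next at 0.942 FPKM (ratio 0.8738). Jag2 in APC cKO mice had its highest library at 7.24 FPKM and the next at 6.61 FPKM (ratio 0.8418). Notch1 in APC/β-cat cKO mice had its lowest library at 1.52 FPKM and the next at 2.104 FPKM (ratio 0.8291). Notch2 in APC cKO mice had its highest library at 3.04 FPKM and the next at 1.75 FPKM (ratio 0.8843). Notch4 in β-cat cOE mice had its highest library at 0.809 FPKM and the next at 0.633 FPKM (ratio 0.8654). Hes1 in APC cKO mice had its lowest library at 5.24 FPKM and the next at 6.03 FPKM (ratio 0.8793). The high Notch2 library is replicate 1 of APC cKO, the library with the highest progenitor marker sum, and the low Notch1 library is replicate 4 of APC/β-cat cKO, which also has the lowest Notch2.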

How the results depend on the processing

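Under every alternative run, 0 of the 10 genes were called in any of the 7 comparisons. The lowest adjusted limma p was 0.0892 (Notch4, APC cKO mice against APC/β-cat cKO mice, with no trend). With a filter at 2 FPKM, Notch2, Dll1, Notch3, Jag1 and Notch4 were not tested, so that setting could not call them. At an unadjusted p under 0.05 in place of the adjusted one, the members counted were those given above, 3 in APC cKO mice, 1 in β-cat cOE mice, 2 in APC cKO mice against APC/β-cat cKO mice, 1 in APC cKO mice against β-cat cOE mice and 2 in the elevated lines, and of the 59 further pathway genes 9 in APC cKO mice, 7 in β-cat cOE mice and 5 in APC/β-cat cKO mice against Controls, 4 in APC cKO mice and 6 in β-cat cOE mice against APC/β-cat cKO mice, and 7 in the elevated lines against the others. Of 52 changes of members followed, 34 kept their sign throughout, among them Notch4, Hes5, Hey1 and Dll1 in APC cKO mice against Controls. The other 18 changed sign in at least 1 of their alternatives, 66 of 1420 values in all, and the largest of these was 0.18 in the reported fit. The cause was not tested. Leaving out 1 library at a time gave Dll1 in APC/β-cat cKO mice against Controls from -0.022 to 0.15, Dll1 in APC cKO mice against β-cat cOE mice from -0.28 to 0.14, Jag1 in APC cKO mice against Controls from -0.22 to 0.046, Jag1 in β-cat cOE mice against Controls from -0.19 to 0.087, Jag1 in APC/β-cat cKO mice against Controls from -0.26 to 0.0025, Jag1 in the elevated lines against the others from -0.073 to 0.065, Jag2 in APC cKO mice against Controls from -0.054 to 0.050, Jag2 in β-cat cOE mice against Controls from -0.018 to 0.10, Notch1 in APC cKO mice against Controls from -0.040 to 0.098, Notch2 in APC cKO mice against Controls from -0.023 to 0.28, Notch2 in β-cat cOE mice against Controls from -0.11 to 0.28, Notch3 in APC cKO mice against Controls from -0.13 to 0.035, Notch3 in the elevated lines against the others from -0.057 to 0.024, Notch4 in APC/β-cat cKO mice against Controls from -0.086 to 0.054, Hes5 in β-cat cOE mice against Controls from -0.064 to 0.11, Hes5 in APC/β-cat cKO mice against Controls from -0.19 to 0.18, Hes5 in β-cat cOE mice against APC/β-cat cKO mice from -0.16 to 0.21, Hey1 in β-cat cOE mice against Controls from -0.034 to 0.044. Without the 2 female libraries the changed signs were Dll1 -0.013 (APC/β-cat cKO mice against Controls), Jag2 -0.0031 (β-cat cOE mice against Controls), Notch1 -0.069 (APC cKO mice against Controls), Notch2 -0.091 (APC cKO mice against Controls), Notch4 0.044 (APC/β-cat cKO mice against Controls), Hes5 0.022 (APC/β-cat cKO mice against Controls), Hey1 -0.016 (β-cat cOE mice against Controls). With quantile normalization the changed signs were Jag1 -0.057 (the elevated lines against the others), Notch1 -0.044 (APC cKO mice against Controls). With the replicate block by title number the changed signs were Jag1 -0.029 (the elevated lines against the others), Notch1 -0.019 (APC cKO mice against Controls). Without replicate 1 of APC cKO and of β-cat cOE the changed signs were Jag1 -0.053 (the elevated lines against the others), Jag2 -0.0085 (β-cat cOE mice against Controls), Notch1 -0.028 (APC cKO mice against Controls), Notch2 -0.023 (APC cKO mice against Controls), Notch2 -0.11 (β-cat cOE mice against Controls). With sex as a covariate the changed signs were Hes5 0.0076 (APC/β-cat cKO mice against Controls), Hey1 -0.036 (β-cat cOE mice against Controls). The 1 further pathway gene called in APC/β-cat cKO mice, Hes6, became 0 with either replicate block, with only the groups compared, and in both added settings, and 0 to 1 with 1 library left out. The counts of all genes called were 10 to 32 (APC cKO mice against APC/β-cat cKO mice), 1 to 23 (APC cKO mice against β-cat cOE mice), 3 to 43 (APC cKO mice against Controls), 10 to 56 (APC/β-cat cKO mice against Controls), 9 to 54 (β-cat cOE mice against APC/β-cat cKO mice), 1 to 3 (β-cat cOE mice against Controls), 7 to 13 (the elevated lines against the others) with 1 library left out, the highest in 4 comparisons without Control replicate 1: 43, 56, 54 and 23. With the replicate block by title number they were 3 (APC cKO mice against Controls), 1 (β-cat cOE mice against Controls), 14 (APC/β-cat cKO mice against Controls), 15 (APC cKO mice against APC/β-cat cKO mice), 12 (β-cat cOE mice against APC/β-cat cKO mice), 1 (APC cKO mice against β-cat cOE mice). With only the groups compared they were 2 (APC cKO mice against Controls), 16 (APC/β-cat cKO mice against Controls), 6 (APC cKO mice against APC/β-cat cKO mice), 10 (APC cKO mice against β-cat cOE mice). Without the 2 female libraries they were 26 (APC cKO mice against Controls), 60 (APC/β-cat cKO mice against Controls), 17 (APC cKO mice against APC/β-cat cKO mice), 50 (β-cat cOE mice against APC/β-cat cKO mice), 14 (APC cKO mice against β-cat cOE mice). With sex as a covariate they were 1 (β-cat cOE mice against Controls), 49 (APC/β-cat cKO mice against Controls), 14 (APC cKO mice against APC/β-cat cKO mice). With a replicate block by header number they were 1 (β-cat cOE mice against Controls), 18 (β-cat cOE mice against APC/β-cat cKO mice). With no trend they were 16 (APC cKO mice against APC/β-cat cKO mice). Without replicate 1 of APC cKO and of β-cat cOE they were 12 (APC cKO mice against APC/β-cat cKO mice), 10 (β-cat cOE mice against APC/β-cat cKO mice), 1 (APC cKO mice against β-cat cOE mice). With a filter at 2 FPKM they were 1 (APC cKO mice against β-cat cOE mice). The header block and both joint removals of libraries were chosen after the data were seen. Deviations of same-numbered libraries from their group means were mostly not positively correlated. By title number the correlation was over 0.1 in 4 of 21 pairs (median -0.069), and by the set of consecutive header numbers in 5 of 24 (median -0.031). These values cannot show whether libraries were prepared in sets. The block changed no call of a member, but 0 members were called without it. Fragment counts are not part of the table, so genes near 1 FPKM, such as Notch4 and Jag1, have a precision that is known only from the spread of replicates.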

Other observations

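Library numbers in the header of the table fall into 4 consecutive sets, each with 1 library per genotype, and differences within a set are given as values only. Notch4 was lower in the APC cKO library than in the Control library in 4 of 4 sets, with log2 differences of -0.94 to -0.40. Any pairing of libraries had to give this count, since these groups did not overlap. Hey1 was lower in the APC cKO library in 4 of 4 sets. Notch4 was also lower in the β-cat cOE library in 4 of 4 sets, with differences of -0.50 to -0.11, and in the APC/β-cat cKO library in 2 of 4. Hes1 was higher than in Control in 4 of 4 sets both in APC cKO and in APC/β-cat cKO and in 3 of 4 in β-cat cOE, and Hes5 was higher in APC cKO in 3 of 4. Dll1 was higher in APC cKO and in β-cat cOE in 3 of 4 sets each, and the set in which it was lower was not the same in both lines. Hes6 was higher than in Control in 4 of 4 sets in each of the 3 lines. In APC cKO and in APC/β-cat cKO this count too followed from groups that did not overlap the Controls. The share of all genes tested that reach 4 of 4 is not given.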
